A study of Mus musculus with 8 samples.

Results

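The transcripts of 10 circadian clock genes were followed in the small intestine of Min/+ mice on 2 diets. The genes were chosen by name from the core loop of the clock: the activators Arntl (also called Bmal1) and Clock, the repressors Per1, Per2, Per3, Cry1 and Cry2, the nuclear receptors Nr1d1 and Nr1d2 (Rev-erb alpha and beta), and the output gene Dbp. All 10 had a probe among the 32540 genes on the array, and 9 were among the 21308 genes tested. Per3 was well above background on 1 array only and is given by its values. The samples were 8 single-colour arrays, 2 for each combination of diet and sex. All mice were C57BL/6J Min/+, which carry 1 truncated copy of the tumour suppressor gene Apc and form intestinal adenomas. The control groups (Control male, Control female) received the semisynthetic AIN-93G diet. The Western groups (Western male, Western female) received a Western-type diet whose fat was 66.4% milk fat, with rapeseed oil and sunflower oil making up the other 33.6%. The labels give 18 months of feeding and RNA from 1 to 3 mice on each chip. Whether a group's arrays came from separate mice is not given, so every p-value reflects only how far these arrays differ, some of which may be technical. The hour at which the tissue was taken is not among the labels used here, so no array is assigned a time of day.

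The mammalian clock is a feedback loop of transcription factors that runs in nearly every cell with a period of about a day. The Arntl and Clock proteins pair, bind E-box sequences and switch on the Per and Cry genes, whose proteins return to the nucleus and block the pair. The same pair drives Nr1d1 and Nr1d2, which repress Arntl and Cry1 through ROR elements, and Dbp, a PAR bZIP factor that carries the rhythm to other genes. In tissues with a running clock, Arntl mRNA is therefore known to be high when Dbp and Nr1d1 mRNA are low, with Per mRNA closer to Dbp and Cry1 mRNA later. In the intestine the clock is known to time nutrient transport, motility and cell division, and feeding time can set it.

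The sequences before the transcription starts of these genes are shown because the loop acts through them. RefSeq windows (mouse build GRCm38.p6) were found for 9 members, in 13 windows, and the 250 bases before each start were searched on both strands for 3 motifs. The E-box CACGTG, which reads the same on either strand, was present in 6.02% of all 32851 such windows. Its variant, which is CACGTT in one reading and AACGTG in the opposite one, was present in 3.85%. The core of the ROR element, AGGTCA in one reading and TGACCT in the opposite one, was present in 14.0%. Of the members, Per1 and Cry1 had the E-box, Cry1, Cry2 and Nr1d1 the variant, and Clock, Per1 and Nr1d2 the ROR core. In Cry1 the variant and the E-box lay close together, beginning 79 and 60 bases before the start. In Per1 the E-box began 166 and the ROR core 137 bases before the start. The variant began 166 bases before the start of Cry2 and 28 before that of Nr1d1, and the ROR core 77 before that of Nr1d2. The windows of Arntl and Dbp held none of these letters, and a match is a description, not a measured binding site. The windows printed, each written 5′ to 3′ on the strand of the gene with the motifs in capitals, are chr11:69098699-69098948 (plus strand) for Per1, chr10:85185055-85185304 (minus) for Cry1, chr2:92434070-92434319 (minus) for Cry2, chr11:98775378-98775627 (minus) for Nr1d1 and chr14:18239107-18239356 (minus) for Nr1d2.
Per1: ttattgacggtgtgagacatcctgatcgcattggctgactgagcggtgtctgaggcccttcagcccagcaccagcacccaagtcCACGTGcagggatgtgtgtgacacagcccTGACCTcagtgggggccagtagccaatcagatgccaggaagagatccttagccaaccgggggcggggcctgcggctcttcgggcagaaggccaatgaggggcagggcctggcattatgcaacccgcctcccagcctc
Cry1: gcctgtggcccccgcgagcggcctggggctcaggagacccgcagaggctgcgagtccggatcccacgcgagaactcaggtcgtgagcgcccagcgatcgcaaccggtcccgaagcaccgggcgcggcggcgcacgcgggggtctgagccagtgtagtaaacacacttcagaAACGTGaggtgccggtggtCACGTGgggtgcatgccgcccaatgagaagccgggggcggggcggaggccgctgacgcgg
Cry2: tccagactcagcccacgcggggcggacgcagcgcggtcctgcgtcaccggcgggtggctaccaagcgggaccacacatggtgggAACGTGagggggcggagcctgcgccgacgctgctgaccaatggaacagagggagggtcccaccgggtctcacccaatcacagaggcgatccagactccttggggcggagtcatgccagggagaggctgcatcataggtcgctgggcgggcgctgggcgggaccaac
Nr1d1: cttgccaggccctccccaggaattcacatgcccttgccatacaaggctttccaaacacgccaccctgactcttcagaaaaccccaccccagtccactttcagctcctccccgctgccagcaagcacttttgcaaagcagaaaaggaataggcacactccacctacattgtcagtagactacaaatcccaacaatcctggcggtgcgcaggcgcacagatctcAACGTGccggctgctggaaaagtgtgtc
Nr1d2: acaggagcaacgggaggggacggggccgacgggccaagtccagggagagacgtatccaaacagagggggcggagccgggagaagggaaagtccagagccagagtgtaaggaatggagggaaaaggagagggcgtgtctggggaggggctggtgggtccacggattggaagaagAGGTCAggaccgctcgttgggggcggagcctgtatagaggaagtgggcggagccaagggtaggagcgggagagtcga

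Signals are log2 of the processed signal relative to the 75th percentile of the array, which lay between 486 and 902 on the scanner's scale. Of all probes, 55.1% to 61.9% were well above background on 7 arrays and 75.6% on Control female 2, which therefore stood apart. All 12 enterocyte markers were well above background on all 8 arrays, and their mean stayed within -0.37 and 0.46 of its mean over the arrays. Control male 1 carried more of the muscle and connective tissue markers. Its mean over 10 smooth muscle markers was 2.85 above the mean of the arrays, against -1.13 to 0.19 on the others, and its mean over 6 fibroblast markers was 2.69, against -0.94 to 0.60. Western female 2 carried more of the fat cell markers. Its mean over the 4 tested was 4.23, against -1.53 to 0.79 on the others, and 2 of the 4 were well above background on all 8 arrays. The library labelled Control female 1 carried the Y-linked transcripts Ddx3y (-0.46), Eif2s3y (1.90) and Uty (-2.71) at the level of the male arrays, and the name of its deposited file pointed to the Western diet. It was kept in the group of its label, and the larger differences that use it are also given without it. In whole tissue, fewer cells of a type and less RNA per cell cannot be told apart.

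The most variable member was Dbp. It measured -0.73 on Control male 1 and 4.62 on Control male 2, 5.18 on the library labelled Control female 1 and 3.49 on Control female 2, 3.20 and 1.92 on the Western males, and 2.71 and 3.65 on the Western females. Control male 1 thus lay below every other array, and both ends of the range were control arrays. The range was 60.0-fold over the 8 arrays and 6.48-fold without Control male 1 and the library labelled Control female 1. By its standard deviation (SD, 1.82 on the log2 scale) Dbp ranked 10 of 16924 genes well above background on all arrays, 156 without Control male 1, and 494 without both arrays. A further Dbp probe gave -1.33 and 3.84 on the Control males, 3.85 and 2.63 on the Control females, 1.88 and 0.70 on the Western males, and 1.60 and 2.48 on the Western females. It placed the arrays in the same order except for Control female 2 and Western female 2, which changed places.

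Arntl, the activator that partners Clock, varied in the opposite direction. It measured 0.96 and -1.17 on the Control males, -1.67 on the library labelled Control female 1 and 0.10 on Control female 2, 0.20 and 0.66 on the Western males, and 0.22 and -0.34 on the Western females. Control male 1, lowest for Dbp, was the highest array for Arntl, and the library labelled Control female 1, highest for Dbp, was the lowest. Clock measured 0.73 and 0.42 on the Control males, -0.10 and 0.41 on the Control females, 0.77 and 0.93 on the Western males, and 0.81 and 0.29 on the Western females. Its SD was 0.34, close to the median of all genes tested (0.33), against 0.89 for Arntl. Clock mRNA is known to cycle weakly or not at all in most tissues.

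Among the repressors of the loop, Per1 was lowest on Control male 1. It measured 0.36 and 2.67 on the Control males, 1.76 and 1.87 on the Control females, 2.42 and 1.01 on the Western males, and 1.28 and 1.90 on the Western females. Its highest and lowest arrays were thus both Control males. Per2, which with Per1 holds the Arntl and Clock pair in check, was well above background on all 8 arrays but below the 75th percentile on each. It measured -3.06 and -1.63 on the Control males, -2.42 and -2.56 on the Control females, -2.46 and -3.71 on the Western males, and -3.27 and -2.62 on the Western females. Its lowest array was Western male 2, and Control male 2 was again the highest. Per3, a less essential relative, measured between -6.35 (Western male 2) and -4.55 (Control female 2), the array with the most probes above background.

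The cryptochromes, which are the strongest repressors of the pair, went separate ways. Cry1 measured -2.89 and -4.63 on the Control males, -4.20 and -4.01 on the Control females, -3.49 and -3.87 on the Western males, and -3.89 and -4.69 on the Western females. Control male 1 was its highest array, as for Arntl. Cry2 measured 0.47 and 1.78 on the Control males, 1.63 and 1.11 on the Control females, 1.53 and 1.67 on the Western males, and 1.00 and 1.35 on the Western females. Control male 1 was its lowest array, and the other 7 lay within 0.79 of each other.

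The nuclear receptors that repress Arntl were both lowest on Control male 1. Nr1d1 measured -1.79 and 0.67 on the Control males, 0.10 and 0.57 on the Control females, -0.14 and 0.17 on the Western males, and -0.38 and 0.07 on the Western females. Nr1d2 measured -1.79 and 0.66 on the Control males, 1.27 and 0.19 on the Control females, 0.26 and 0.28 on the Western males, and -0.07 and 0.75 on the Western females. Without Control male 1 the SD of Nr1d1 was 0.37 in place of 0.77, and that of Nr1d2 was 0.45 in place of 0.90.

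**Figure D1:**
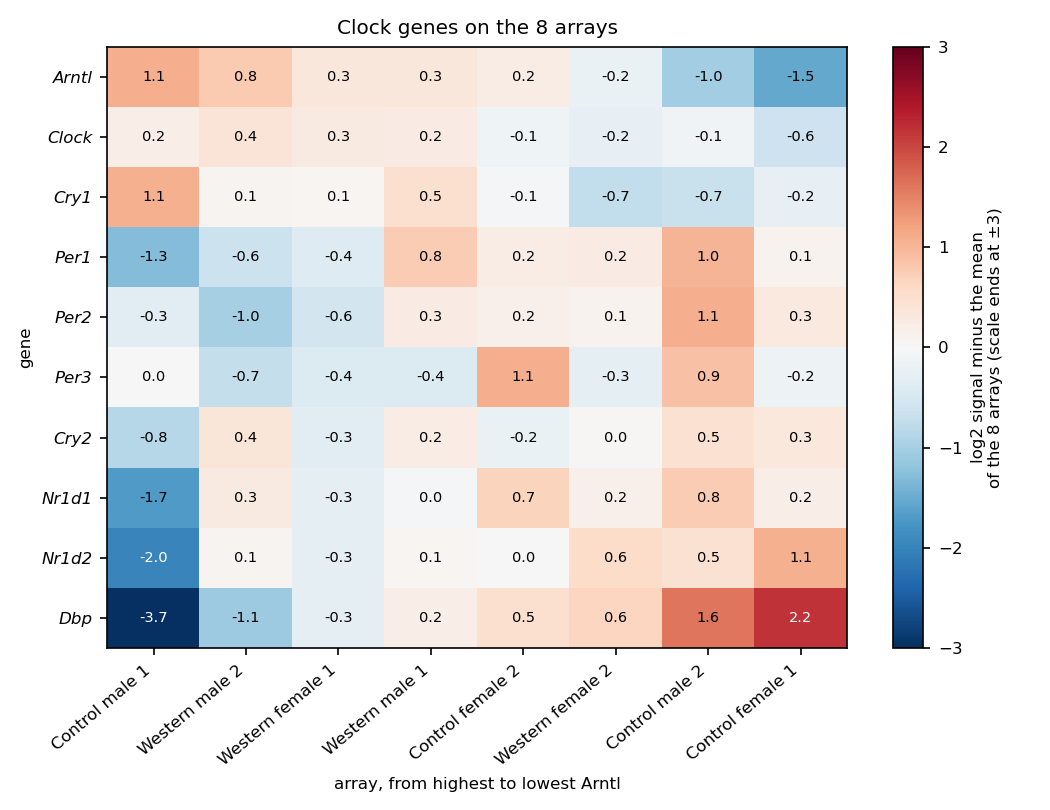
Each cell gives the log2 signal of a gene (row) on an array (column) minus the gene's mean over the 8 arrays, with arrays ordered from the highest to the lowest Arntl. Dbp runs from -3.73 on Control male 1 to 2.17 on the library labelled Control female 1, opposite to Arntl (1.09 to -1.54). Per1, Per2 and Nr1d1 are mostly below their mean on the left and above it on the right. Nr1d2 is mixed on the left and Per3 on the right.

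The question that the loop poses is whether activators and repressors moved oppositely between arrays. Over the 8 arrays the order by Arntl was the exact reverse of the order by Dbp (Spearman's rho -1.0, exact two-sided permutation p = 4.96e-05, the smallest that 40320 pairings can give here; 0.000446 after Benjamini-Hochberg adjustment over the 9 relations with Arntl). Pearson's r was -0.88 (exact permutation p = 0.0027, adjusted 0.0243, n = 8 arrays). It was -0.90 without Control male 2 and the library labelled Control female 1, the arrays farthest from the median of Arntl. It was -0.97 (exact permutation p = 0.000198, the smallest that 7 arrays allow) without Control male 1, where smooth muscle markers were high, and -0.94 without that array and the library labelled Control female 1. The adjusted p for r was 0.0875 with both of these arrays left out, 0.10 without Control male 2 and 0.0522 without the library labelled Control female 1 alone, by the exact permutation test over fewer arrays.

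On the further Dbp probe the reverse order had 1 exception, Control female 2, which exceeded Western female 2 in both genes (rho -0.98, r = -0.89, exact permutation p = 0.0025, adjusted 0.0225). The reverse order over all arrays fixes the direction within every slide and group, so the values within groups are given for their size. Control male 1 exceeded Control male 2 by 2.12 in Arntl and differed by -5.35 in Dbp. For the Control females these differences (array 1 minus array 2) were -1.77 and 1.69, for the Western males -0.47 and 1.28, and for the Western females 0.56 and -0.95. For the members whose direction is not fixed in this way, Per2 was opposite to Arntl in 4 of 4 groups, Per1, Per3, Cry2 and Nr1d2 in 3, Nr1d1 in 2, Cry1 in 1 and Clock in 0.

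Of the other members, Clock followed Arntl (r = 0.85, exact permutation p = 0.00558, adjusted 0.0251; rho = 0.79, p = 0.0279, adjusted 0.0503). Nr1d2 ran against it (r = -0.78, exact permutation p = 0.0154, adjusted 0.0461; rho = -0.81, p = 0.0218, adjusted 0.049). Without the 2 arrays farthest from the median of Arntl, r was 0.73 for Clock (exact permutation p = 0.107) and -0.80 for Nr1d2 (exact permutation p = 0.05, n = 6). The adjusted p of Clock was 0.126 and that of Nr1d2 0.137 by exact permutation without the library labelled Control female 1. Per2 (r = -0.72, exact permutation p = 0.0433, adjusted 0.0836; rho = -0.81, p = 0.0218, adjusted 0.049) and Cry1 (r = 0.71, exact permutation p = 0.0464, adjusted 0.0836; rho = 0.83, p = 0.0154, adjusted 0.049) passed the threshold of 0.05 by rank only. Without the 2 farthest arrays these were -0.60 and 0.86.

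Per1 (r = -0.64, rho = -0.69), Cry2 (-0.62, -0.52), Nr1d1 (-0.57, -0.57) and Per3 (-0.30, -0.41) did not pass (exact permutation adjusted p for r 0.131, 0.133, 0.162 and 0.495, and for rho 0.104, 0.221, 0.194 and 0.327). Without the 2 farthest arrays their r was -0.80, -0.41, -0.66 and -0.16. Cry1 and Per1, which both hold the E-box printed above, had r of opposite sign with Arntl. Neither passed by r, and Cry1 passed by rank. The part of the E-box in the sign of r was not tested.

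**Figure D2:**
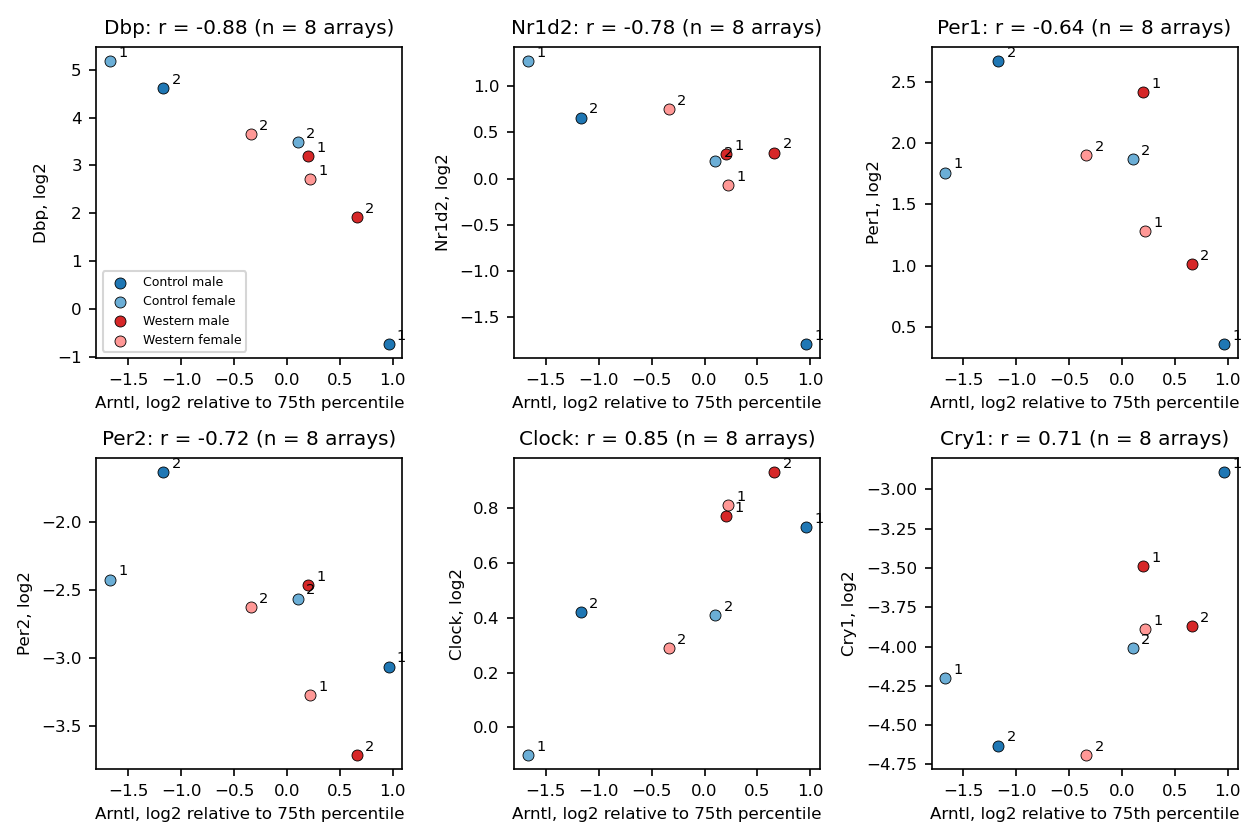
Each point is an array (n = 8), with the log2 signal of Arntl on the horizontal axis and that of another member on the vertical axis; colours mark the groups and digits the replicate. Dbp on the probe tested is lower on each array with more Arntl (r = -0.88; the further probe has 1 exception), Nr1d2, Per1 and Per2 are lower at high Arntl (r = -0.78, -0.64 and -0.72), and Clock and Cry1 are higher (r = 0.85 and 0.71).

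The balance of the loop was expressed per array as the mean of the 7 repressor genes minus the mean of Arntl and Clock, each gene centred on its mean over the arrays. It was -1.37 on Control male 1 and 1.15 on Control male 2, 1.31 on the library labelled Control female 1 and 0.21 on Control female 2, -0.10 and -0.82 on the Western males, and -0.62 and 0.24 on the Western females. The control arrays therefore held both the lowest and the highest values. They averaged 0.32 ± 1.23 against -0.32 ± 0.48 for the Western arrays (SD, n = 4 each). Males averaged -0.28 ± 1.09 and females 0.28 ± 0.79 (SD, n = 4 each). These differences were smaller than the SD between arrays of a group (1.05). The female and the control averages both include the library labelled Control female 1, the highest array (1.31). The other female arrays ran from -0.62 to 0.24 and the other control arrays from -1.37 to 1.15. Without Control male 1 the remaining 7 arrays ran from -0.82 to 1.31. Quantile normalization turned the sign of Control female 2, to -0.51.

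**Figure D3:**
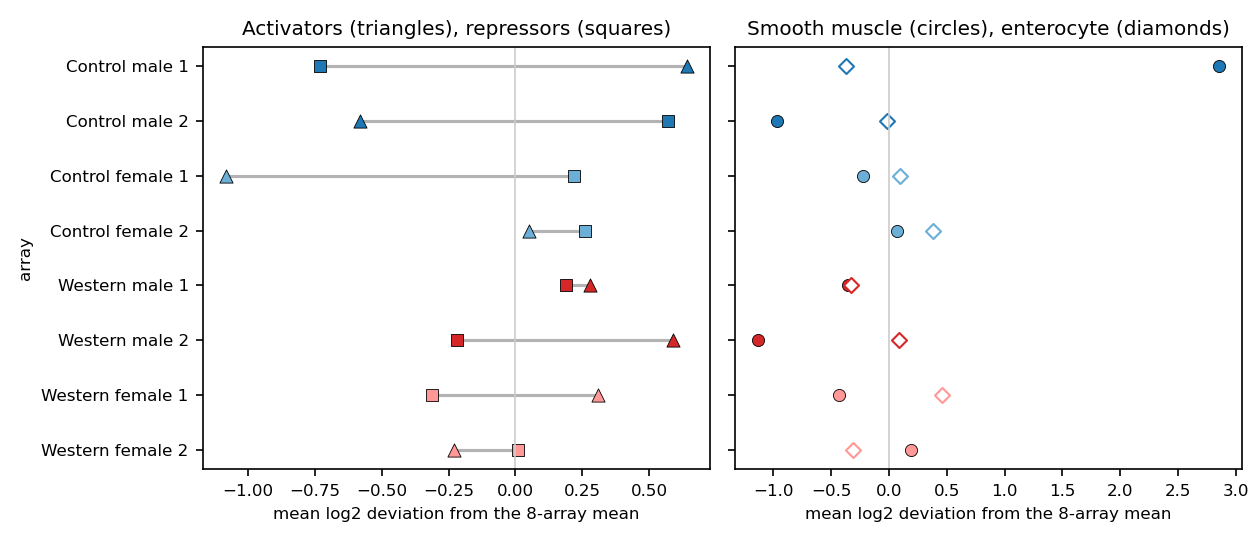
For each array (row), the left panel shows the mean deviation of the activators Arntl and Clock (triangles) and of the 7 repressors (squares) from their 8-array means, and the right panel that of 10 smooth muscle (circles) and 12 enterocyte (open diamonds) markers, all in log2 units. Control male 1 has activators at 0.64 and repressors at -0.73 beside smooth muscle markers at 2.85, and Control male 2 has activators at -0.58 and repressors at 0.57 beside smooth muscle markers at -0.97.

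Between the arrays of one group the members could differ as much as between groups, as the Control males show. Control male 1 and 2 differed 40.7-fold in Dbp, which ranked 12 of 21291 genes by this difference. They differed 5.50-fold in Nr1d1, 5.45-fold in Nr1d2, 4.95-fold in Per1 and 2.70-fold in Per2, all lower on Control male 1, and 4.36-fold in Arntl and 3.33-fold in Cry1, both higher there. The part of the muscle and connective tissue in these differences was not tested. The Western males (array 1 minus array 2) differed little in Nr1d2 (-0.02), Cry2 (-0.14), Clock (-0.16) and Nr1d1 (-0.31). They differed more in Per1 (1.41), Dbp (1.28) and Per2 (1.24). The median SD over arrays was 0.75 for the 9 members tested and 0.33 for all genes. Without Control male 1 the SD was lower for every tested member but Clock (0.36) and Per2 (0.66). It was then 1.10 for Dbp, 0.84 for Arntl, 0.58 for Per1, 0.43 for Cry1 and 0.30 for Cry2. The share of a gene's variance that lay within groups had a median of 73.2% for the members and 61.6% for all genes, from 40.2% for Clock to 97.3% for Per1.

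The series compared the Western-type diet with the control diet. No member differed by diet beyond the spread between arrays. By limma, 0 of the 9 tested members passed an adjusted p of 0.05, where 0.0% of the 21308 genes tested did. At the same time 0 members had an unadjusted p under 0.05, where 4.27% of genes did. The largest difference (Western minus control, n = 4 arrays per diet) was in Arntl, at 0.63 ± 0.60 SE (95% interval -0.83 to 2.09, adjusted p = 0.995). It was 0.19 without the library labelled Control female 1 and 0.10 without Control male 2, and 1.16 without Control male 1, so the size rests on single arrays. Per2 differed by -0.60 ± 0.43 (-1.65 to 0.45, adjusted p = 0.995 by limma) and Clock by 0.33 ± 0.21 (-0.18 to 0.84, adjusted p = 0.995 by limma).

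The other members were closer to 0 on average, with wide intervals. Dbp differed by -0.27 ± 1.20 (-3.19 to 2.66), Nr1d2 by 0.22 ± 0.58 (-1.21 to 1.65) and Cry2 by 0.14 ± 0.32 (-0.65 to 0.93). Nr1d1 differed by 0.04 ± 0.54, Cry1 by -0.05 ± 0.42 and Per1 by -0.01 ± 0.58. Their adjusted p was 0.999 by limma. In all 9, 5 members were higher and 4 lower on the Western diet, with a median of 0.04 against -0.06 for all genes. Of all genes, 40.5% were higher. No member separated the diets without overlap (0.864% of genes did so upward and 2.29% downward). The intervals of all tested members but Clock and Cry2 allow differences of more than 1 log2 unit in at least 1 direction, so no absence of an effect is shown. The sign of Dbp and of Per1 turned with slide as a block (0.44 and 0.60), as given with the other settings in the closing section.

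Within a sex, too, no member passed, and the directions rested on single arrays. In males 8 of 9 were higher on the Western diet, where 48.7% of all genes were. These ran from 0.08 (Cry1) to 0.83 ± 0.83 SE (Nr1d2), while Per2 was lower (-0.74 ± 0.61), and the adjusted p was 1.00 for each by limma. Without Control male 1, the array rich in smooth muscle markers, 3 of 9 were higher, and Nr1d2 (-0.39), Nr1d1 (-0.66), Per1 (-0.95), Cry2 (-0.18) and Dbp (-2.05, against 0.62 with it) were lower. Without Control male 2, Dbp was 3.29, Arntl -0.53 and Cry1 -0.79. In females 7 of 9 were lower, but most genes were too, with 36.8% of all genes higher. The exceptions were Arntl (0.73 ± 0.84) and Clock (0.39 ± 0.29), and the smallest adjusted p of limma was 0.954. Without the library labelled Control female 1, Arntl was -0.16, Nr1d2 0.15 and Cry2 0.06, each of the opposite sign, and Dbp was -0.31 in place of -1.15. Clock lay higher without overlap in the Western males, as 12.1% of genes did, and no member lay lower (13.0%). Per2 and Nr1d1 lay lower without overlap in the Western females, as 21.8% of genes did, and none lay higher (9.59%). The library labelled Control female 1 is part of that comparison. The difference between the sexes in the diet effect (females minus males) was largest for Dbp (-1.77 ± 2.39 SE), Nr1d2 (-1.22 ± 1.17) and Nr1d1 (-1.06 ± 1.08), with an adjusted p of 1.00 each by limma. Without Control male 1 these were 0.90, 0.00 and 0.17, so 1 array set both their sign and their order. The share of all genes past the adjusted threshold was 0.0% in each of these comparisons. At an unadjusted p under 0.05 there were 0 members in males (1.3% of genes), 0 in females (5.09%) and 0 for the difference (1.62%).

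Between the sexes, Dbp was 1.50 ± 1.20 SE higher in females (95% interval -1.42 to 4.43, adjusted p = 0.906 by limma). The female arrays include the library labelled Control female 1, which carries Y-linked transcripts, and without it the difference was 1.08. Arntl differed by -0.58 ± 0.60, Nr1d2 by 0.69 ± 0.58, Cry1 by -0.48 ± 0.42, Clock by -0.36 ± 0.21 and Nr1d1 by 0.36 ± 0.54, with adjusted p between 0.906 and 0.934 by limma. Without that library the difference in Arntl was -0.14, and that in Nr1d2 0.42. Per1, Per2 and Cry2 differed by at most 0.09 in either direction. No member passed (0.0% of all genes did), and 0 had an unadjusted p under 0.05 (3.85% of genes). None separated the sexes without overlap, upward in females (1.96% of genes) or downward (1.03%). Without Control male 1 the difference was 0.17 in Dbp, 0.08 in Nr1d2, -0.05 in Arntl and -0.25 in Nr1d1.

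**Figure D4:**
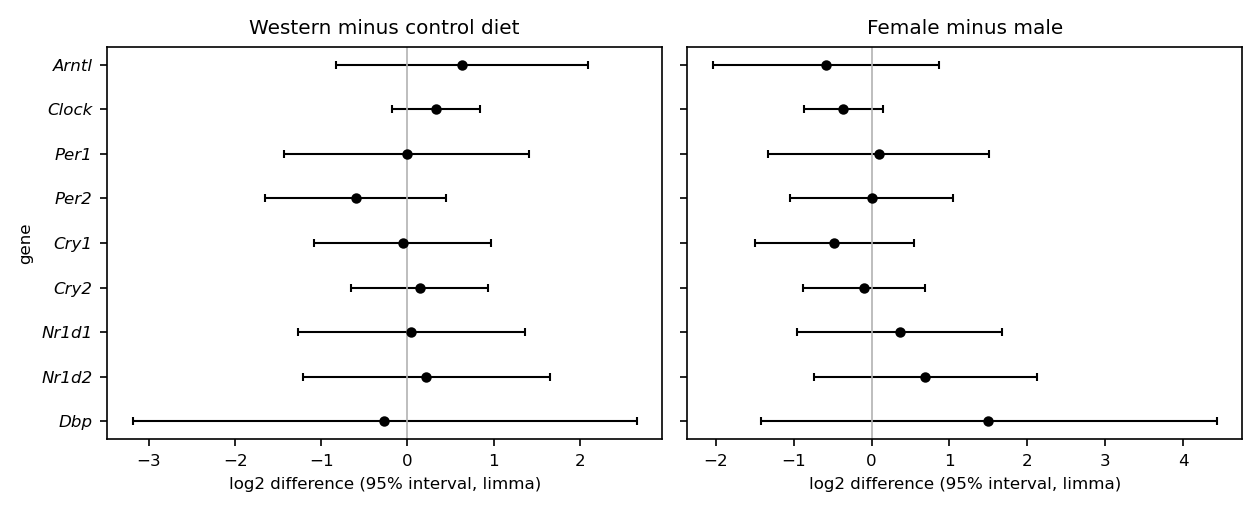
Points are log2 differences of the 9 tested members from limma and bars their 95% intervals, for Western minus control diet (left) and female minus male (right), n = 4 arrays on each side. Every interval spans 0, and that of Dbp is the widest (-3.19 to 2.66 for diet).

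Genes that extend the loop were examined as a list of 33 further activators, repressors, modifiers and outputs. Of these, 31 were tested (Arntl2 and Bhlhe41 were too dim), 0 passed for diet by limma in either direction, and 16 were higher and 15 lower on the Western diet (median 0.03 against -0.06 for all genes). At an unadjusted p under 0.05 by limma there was 1, Hlf, where 4.27% of all genes tested were under it. For sex 0 passed, with 13 higher and 18 lower in females (median -0.09 against 0.08). Of all genes, 40.5% were higher on the Western diet and 62.3% were higher in females.

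Tef, a PAR bZIP factor like Dbp, was the gene most like Dbp of 12390 named genes well above background on all arrays (r = 0.97 over 8 arrays). It measured 1.40 and 4.95 on the Control males, 4.54 and 3.74 on the Control females, 3.98 and 3.26 on the Western males, and 3.44 and 4.06 on the Western females. Control male 1 was low by itself, as for Dbp. Hlf, the third PAR bZIP factor, measured -5.18 and -3.58 on the Control males, -3.77 and -2.72 on the Control females, -4.88 and -6.42 on the Western males, and -6.15 and -4.92 on the Western females. It was dim, well above background on 6 arrays, and its diet difference was -1.78 ± 0.57 SE (adjusted p = 0.995 by limma).

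Nfil3, which competes with Dbp for the same DNA sites and represses, took the other side. It measured 2.33 and -0.30 on the Control males, -0.42 and 0.63 on the Control females, 1.28 and 2.23 on the Western males, and 1.32 and 1.17 on the Western females (r = 0.94 with Arntl and -0.89 with Dbp). Npas2, a relative of Clock that can replace it beside Arntl, was highest on Control female 2 (-2.75) and lowest on the library labelled Control female 1 (-4.38), with r = 0.89 with Arntl. Ciart, a further repressor of the pair, was well above background on 3 arrays. It measured -7.65 and -3.50 on the Control males, -3.80 and -6.71 on the Control females, -4.93 and -7.14 on the Western males, and -7.43 and -6.37 on the Western females. Its 3 brightest arrays were Control male 2, the library labelled Control female 1 and Western male 1.

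Rora and Rorb encode receptors that activate Arntl where the Nr1d receptors repress it. Over the 8 arrays Rora had r = 0.33 with Arntl and Rorb 0.10, and Bhlhe40, a repressor of E-box genes, had -0.36. Rora and Rorb were dim, well above background on 7 and 6 arrays. Both were highest on Control female 2 (-2.23 and -3.01), the array with the most probes above background. The diet difference of Rora was -0.93 ± 0.74 SE, that of Bhlhe40 -0.34 ± 0.18, that of Nfil3 0.94 ± 0.62 and that of Ciart -1.05 ± 1.15 (adjusted p 0.995 for each by limma). Next to Hlf and Bhlhe40, which had the smallest p among the lower genes, the casein kinase Csnk1e (0.31 ± 0.19) and Nfil3 had the smallest among the higher ones. For sex these were Prkaa2 (-0.38 ± 0.17), a subunit of the energy sensor AMPK, and the ubiquitin ligase Lonrf3 (-0.66 ± 0.32) among those lower in females, and Rorb (0.54 ± 0.35) and Hlf (0.63 ± 0.57) among the higher (adjusted p = 0.906 for each by limma).

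**Figure D5:**
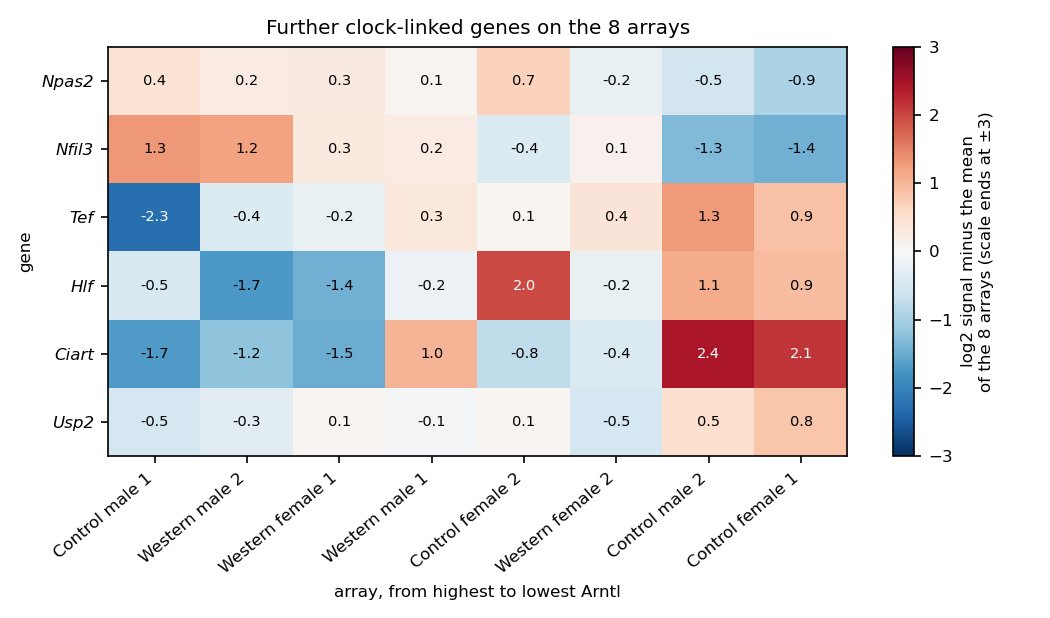
Each cell gives the log2 signal of a clock-linked gene minus its mean over the 8 arrays, with arrays ordered as in the plot of the members, from the highest to the lowest Arntl. Tef, Ciart and Usp2 are below their mean on Control male 1 and above it on Control male 2 and the library labelled Control female 1, and Nfil3 and Npas2 are the reverse.

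Over all named genes above background on all arrays, those most like Arntl were Denn2b (r = 0.95), Pdxdc1, Fam168a, Xxylt1 and Nfil3 (0.94), and those most opposite were Rasd2 (-0.98), Rab37, Usp20, Cyp2u1 and Hsd3b3 (-0.91), over 8 arrays. Clock ranked 33 of 12390 from the highest r with Arntl, and Dbp 15 and Nr1d2 112 from the lowest. Those most like Dbp after Tef were Cgrrf1, Nr1d2 (0.94), Kcnk5 and Epha1, and those most opposite were Bicd2 (-0.95), Ccdc93, Rnf125, Denn2b and Gm8884 (-0.90). Nr1d2 is the one member among them. Denn2b stood in both lists. The genes named are the extremes of 12390 genes over 8 arrays, and their ranges differed widely. Ccdc93 ranged 1.28-fold, Cgrrf1 1.37-fold and Pdxdc1 1.54-fold, against 4.39-fold for Denn2b, 6.74-fold for Nfil3 and 11.7-fold for Tef.

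Per1 also responds to glucocorticoid, and a list of 9 genes known for that response, Per1 among them, was examined. All 9 were tested, 0 passed for diet or sex, and 4 were higher and 5 lower on the Western diet (median -0.01). Of all genes, 40.5% were higher, with a median of -0.06. Fkbp5, a chaperone induced by glucocorticoid, was lowest on Control male 1 (-0.22), as Per1 was, and highest on Western male 1 (3.59). Its r with Arntl was -0.21, against -0.64 for Per1. Tsc22d3 was also lowest on Control male 1 (1.68), but Sgk1, Klf9, Zbtb16, Dusp1, Errfi1 and Cdkn1a were lowest on other arrays. Apart from Per1, r with Arntl in the list ran from -0.31 (Sgk1) to 0.42 (Errfi1).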

How the data were processed

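Total RNA of the small intestine was measured on 8 single-colour Agilent arrays, 2 for each of 4 groups of diet and sex, as the labels give them. The deposited processed signal of each spot is an intensity on a linear scale, already background-subtracted by Feature Extraction (version 10.7.3.1, the scanner software), as stated per the file headers. Control spots (1377) and outlier spots were left out, spots of a probe were averaged, and log2 values were taken relative to each array's 75th percentile. Of 39429 probes, 26406 received a symbol through RefSeq accessions. Probes had to be well above background on 2 or more arrays (25738 were), and the brightest probe of each gene was tested (21308 genes). The headers name mouse build mm9, and sequences come from RefSeq GRCm38.p6 by symbol.

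Group means were fitted with limma 3.58.1 (R 4.3.3; tables were read by the data.table package, version 1.17.8) over all 8 arrays, with Benjamini-Hochberg adjustment over all genes tested (threshold 0.05). The procedure was tested on simulated data. Correlations used exact permutation over pairings of arrays. Slide 1 held replicate 1 of each group, slide 2 Western male 2 and slide 3 the others; slide 3 was scanned on another day. Alternatives covered normalization, background correction, filters, probes, blocks, array weights and leaving out each array. The correlations of same-numbered arrays' deviations ran from -0.12 to 0.35, and the samples were not treated as paired by replicate number. With 2 arrays per group these values cannot exclude a pairing, so a replicate block is among the alternatives. The members and gene lists were chosen with earlier results of these data known. Named were all members, a fixed set of clock regulators, those with the smallest p, and the 5 genes most and least correlated with Arntl and with Dbp. A gene that this rule named is not reported here. Usp2, Fkbp5 and the glucocorticoid list values were chosen with the values in view. The number of arrays limits the precision.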

Additional observations from a re-analysis of the deposited data

Results flagged for a closer look

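Nr1d2, the Rev-erb beta receptor, measured -1.79 on Control male 1 and 0.26 to 0.66 on the other 3 male arrays. The gap to its nearest neighbour was 0.836 of the range, above the 95% critical value of Dixon's test for 4 arrays. This was 1 of 44 groups checked for a distant array, and chance alone gives about 1 in 20. Smooth muscle markers were also high on this array (2.85), and their part in the value was not tested.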

How the results depend on the processing

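No member passed the threshold in any contrast under any alternative with a test (smallest adjusted p 0.777 for diet and 0.686 for sex by limma). Of 162 alternative values for diet, 22 of those with a test changed sign, and of 162 for sex 13. Values within slide 1 had no test and are not in these counts of sign changes. For diet, Cry1 was 0.57 after quantile normalization. Dbp was 0.12 with scan day and 0.44 with slide as a block, and 0.73 within slide 1. Per1 was 0.24 and 0.60 with these blocks and 0.79 within slide 1. For sex, Per1 was -0.16 and -0.52 with scan day and slide as a block, and Per2 was 0.06 with normexp. Leaving out each array in turn gave ranges for diet of 0.10 to 1.16 (Arntl), -0.49 to 0.38 (Cry1), -0.19 to 0.47 (Cry2), -1.60 to 1.07 (Dbp), -0.57 to 0.66 (Nr1d1), -0.39 to 0.83 (Nr1d2) and -0.59 to 0.57 (Per1). For sex they were -1.11 to -0.05 (Arntl), 0.17 to 2.84 (Dbp), -0.42 to 0.23 (Cry2), -0.25 to 0.98 (Nr1d1), -0.49 to 0.67 (Per1) and -0.36 to 0.35 (Per2). Within a sex, of 153 alternative values with a test in each contrast, 14 changed sign in males, 8 in females and 21 for the difference. Values within a slide are not in these counts, and some of them also changed sign. Genes past the threshold numbered 0 to 395 for diet in females (395 without the library labelled Control female 1 and 2 without Control female 2, with the lone array assumed to vary like the other groups), 0 to 2 for the difference and 0 to 3 for sex (2 and 3 without the library labelled Control female 1). The cause was not tested. With the replicate number as a replicate block 0 genes passed in any contrast, and the diet difference of Dbp was -0.27.

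The correlation with Arntl kept its sign in all 13 alternatives for every member but Per3, which was 0.03 on deviations from the group means. Leaving out each array gave 0.70 to 0.90 for Clock, -0.86 to -0.71 for Nr1d2, -0.97 to -0.86 for Dbp and -0.83 to -0.43 for Cry2, which passed the threshold without Western male 2 (adjusted p = 0.0424 by exact permutation). Of the 12 alternatives with a test, Dbp passed in 9, Clock in 6 and Nr1d2 in 5. The further Dbp probe, also added after seeing the data, gave -0.89. Without Control male 1 and the library labelled Control female 1, a choice made after seeing the data, r was 0.72 for Clock, -0.69 for Nr1d2 and -0.94 for Dbp, none past the threshold. The normexp correction used the median signal, the column present here.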
